A study of Mus musculus with 6 samples.

Results

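The addition of IL-27 to postnatal immune activation was examined in mouse hippocampus by comparing 2 RNA-seq libraries of PIA+IL-27 with 2 libraries of PIA. PIA stands for postnatal immune activation, which the design describes as LPS (bacterial lipopolysaccharide), and PIA+IL-27 received recombinant IL-27 in addition. These 4 libraries were taken by their treatment labels from the 6 of the series, and the other 2 are Control. LPS was thus common to both groups compared, and the comparison addresses how the hippocampus differed once IL-27 was given too. The labels give no strain, age, sex, litter, dose, route or time, and do not say whether a library came from 1 animal or a pool. P-values therefore cover the spread between these samples, which may be technical. All 3733 genes of the deposited table were used, through the read count of each library.

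IL-27 is a cytokine made mainly by myeloid cells, built from the subunits Il27 (p28) and Ebi3, and signals through a receptor that activates kinases of the JAK family and transcription factors of the STAT family. STAT dimers bind the palindromic GAS element, through which interferon gamma also acts, while type I interferon acts mainly through the ISRE. LPS is sensed by Toll-like receptor 4 on microglia and other myeloid cells, which then make cytokines and chemokines, and astrocytes respond with acute-phase proteins and protease inhibitors. In the brain, homeostatic microglia carry the purinergic receptor P2ry12, which is typically lost on activation.

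Whole libraries held an estimated 14622472 to 15804788 reads, a depth worked out from FPKM, length and reads of 25 single-transcript genes. The listed genes held 641672 to 1593441 reads, or 2.39 to 4.77% of transcripts by TPM. Every listed gene meets the authors' limits (a 2-fold change with Q at most 0.05) for some pair of groups. The table is thus a selection made on these libraries, and 2974 of its genes were selected for the comparison described here, 2293 higher and 681 lower in the authors' deposited table. Replicates differed by over 2-fold in 1173 genes (31.4%) in PIA, 1157 (31.0%) in PIA+IL-27 and 2567 (68.8%) in Control. The libraries also differed in makeup. Reads of the 4 Y-linked genes summed to 541 and 593.5 normalized reads in PIA 1 and 2, to 1476 in PIA+IL-27 1 and to 6.80 in PIA+IL-27 2. Markers of neocortex summed to 38.0 and 85.6 TPM in PIA 1 and 2 and to 149 and 29.7 in PIA+IL-27 1 and 2, and those of dentate granule cells, which mark hippocampus, to 16.5 and 8.13 and to 32.0 and 40.3. The dentate transcription factor Prox1 had 627 and 96.0 normalized reads in PIA and 172 and 1358 with IL-27. Within each group, PIA 2 and PIA+IL-27 1 were thus the library with fewer reads of Prox1 and more of neocortical markers. Not every dentate marker followed Prox1. Rfx3 had 203 and 245.5 normalized reads in PIA and 817.5 and 655 with IL-27, and Stxbp6 had 201 and 168 against 709 and 417.5. Both were highest in PIA+IL-27 1. In whole tissue, fewer cells of a type and less RNA per cell cannot be told apart.

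With IL-27, 14 of 3216 tested genes passed (0.435% called, edgeR quasi-likelihood test, adjusted p at or under 0.05), of which 12 were lower (0.373%) and 2 higher (0.0622%). The lower genes encode chemokines (Ccl5, Cxcl10), acute-phase and iron proteins (Saa3, Hp, Lcn2, Steap4), protease inhibitors (Serpina3f, Serpina3g), myeloid products (S100a8, Wfdc17), the choroid plexus transport protein transthyretin (Ttr) and the growth factor Gdf1. In 8 of the 14 genes the groups did not overlap, meaning that both libraries of one group lay above both of the other. Of all 3733 listed genes, 2745 did not overlap (73.5%), 2130 higher (57.1%) and 615 lower (16.5%). Among the genes that the authors listed for this comparison the share was 86.95%, so separation of the groups is the usual state of a listed gene. Of the 12 lower genes, 9 had more reads in PIA 1 than in PIA 2, and 8 of these differed by over 4-fold between those 2 libraries.

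**Figure D1:**
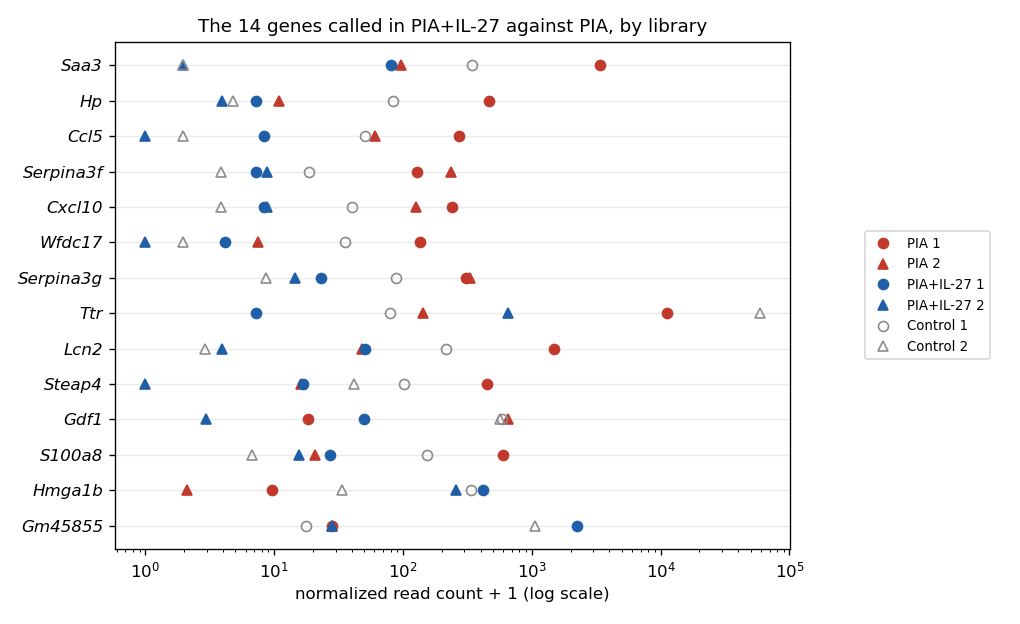
Normalized read counts plus 1 (log axis) of the 14 genes called in PIA+IL-27 against PIA, with 1 symbol per library: PIA in red, PIA+IL-27 in blue, Control in open grey, circles for replicate 1 and triangles for replicate 2. Serpina3g, Serpina3f and Cxcl10 had close replicates in both groups, while Saa3, Hp, Lcn2, Ttr and S100a8 were far higher in PIA 1 than in PIA 2.

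Cxcl10, which recruits T cells through Cxcr3, had 238 and 124 normalized reads in PIA and 7.30 and 7.77 with IL-27. Its log2 fold change was -4.57 ± 1.03 (SE, n = 2 per group; adjusted p = 0.0174, edgeR). Both libraries with IL-27 lay far below both without it, and below Control 1 with 39.2 but above Control 2 with 2.86. Ccl5, which attracts T cells and monocytes, had 271 and 60.01 normalized reads in PIA and 7.30 and 0 with IL-27 (-5.48 ± 1.11, adjusted p = 0.00286). The groups did not overlap, although PIA 1 exceeded PIA 2. Cxcl9, another Cxcr3 ligand, had 76.9 and 52.4 against 3.13 and 0.971 and did not pass (-4.91 ± 1.30, adjusted p = 0.0511, and 0.0493 with 4 libraries). Ccl2, the monocyte chemoattractant, had 113 and 27.3 against 5.21 and 3.88 normalized reads (adjusted p = 0.0493, edgeR, with 4 libraries). Of the 23 listed chemokine and receptor genes, 17 were tested, 15 had a log2 fold change below 0 and 2 above, and the median was -2.23, against 1.17 over all tested genes. Without PIA 1 the median was -1.41, and without PIA+IL-27 1 it was -3.76. In 11 of the 23 both libraries with IL-27 lay below both PIA libraries, and in 1 above. The shares over all listed genes were 16.5% below and 57.1% above.

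Serpina3 genes encode secreted inhibitors of serine proteases that astrocytes and other cells make in inflammation. Serpina3g had 308 and 328 normalized reads in PIA and 21.9 and 13.6 with IL-27 (-4.20 ± 0.96, adjusted p = 0.0234, edgeR). Serpina3f had 128 and 234 against 6.26 and 7.77 (-4.77 ± 1.04, adjusted p = 0.0126). For both genes the replicates of each group lay near each other and the groups were widely apart. Serpina3i had 352 and 124 against 35.5 and 15.5 and did not pass (-3.25 ± 0.96, adjusted p = 0.152, and 0.0493 with 4 libraries). Serpina3n, the member known best as a marker of reactive astrocytes, had 2535 and 199.7 in PIA and 223 and 460 with IL-27, so its groups overlapped. The members are related copies in 1 gene cluster, and how the authors' counting divided reads between them was not tested, so each single value is uncertain.

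The acute-phase and iron genes were lower in PIA+IL-27, but most of their reads in PIA came from PIA 1. Saa3, an acute-phase apolipoprotein, had 3384 and 96.0 normalized reads in PIA and 80.3 and 0.971 with IL-27 (-5.42 ± 0.86, adjusted p = 0.000168). Hp, haptoglobin, which binds free hemoglobin, had 466 and 9.82 against 6.26 and 2.91 (-5.67 ± 1.07, adjusted p = 0.00117). In both genes the groups were separated only narrowly, since PIA 2 lay close to PIA+IL-27 1. Lcn2, the lipocalin that withholds iron from bacteria, had 1496 and 46.9 against 50.1 and 2.91 (-4.86 ± 0.89, adjusted p = 0.00117). Steap4, a metalloreductase, had 446 and 15.3 against 15.6 and 0 (-4.87 ± 1.01, adjusted p = 0.0067). These last 2 genes passed with groups that overlap, because PIA 2 lay just under PIA+IL-27 1. Of the 11 listed genes of this kind 8 were tested and all 8 lay below 0, with a median log2 fold change of -3.33. Without PIA 1 the median was -1.07, and without PIA 2 it was -4.07.

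Markers of neutrophils and monocytes showed the same dependence on 1 library. S100a8, 1 chain of the neutrophil protein calprotectin, had 598 and 19.6 normalized reads in PIA and 26.1 and 14.6 with IL-27 (-3.92 ± 0.95, adjusted p = 0.043). Its partner S100a9 had 548 and 17.5 against 44.8 and 11.7 and did not pass (-3.32 ± 0.95, adjusted p = 0.129). Wfdc17, a myeloid secreted protein, had 135 and 6.55 against 3.13 and 0 (-5.42 ± 1.35, adjusted p = 0.0184). PIA 1 was the only 1 of the 4 libraries rich in all 3 transcripts. Of the 19 listed genes, 17 had more reads in PIA 1 than in PIA 2, by a median log2 ratio of 4.17. All 14 tested genes lay below 0 with a median of -3.50, which was -0.01 without PIA 1. The 9 listed defining markers of these cells summed to 1169 and 51.8 TPM in PIA and to 77.6 and 37.3 TPM in PIA+IL-27, and among them the neutrophil surface gene Ly6g had 10.6 normalized reads in PIA 1 and 0 in the other 3. The part of these cells in the results for other genes that were high in PIA 1 was not tested.

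Ttr and Gdf1 passed as well. Ttr had 11300 and 141 normalized reads in PIA and 6.26 and 649 with IL-27 (-4.13 ± 0.74, adjusted p = 0.000629), with 78.4 and 58610 in Control. Its values differed widely within every group, and without PIA 1 its log2 fold change turned to 1.22. The 17 listed markers of choroid plexus, the tissue in the ventricles that secretes cerebrospinal fluid, summed to 2412 and 60.4 TPM in PIA and 69.4 and 194 TPM with IL-27, with PIA 1 highest by far, as for Ttr, which is 1 of them. Gdf1, a growth factor of the TGF-beta family, had 17.3 and 656 against 49.0 and 1.94 (-3.72 ± 0.89, adjusted p = 0.0341), with 584 and 567.5 in Control. PIA 2 was thus the only high library of the 4 compared, and both Control libraries lay near it. Both of these genes had overlapping groups.

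The 2 genes that passed as higher were Hmga1b and Gm45855. Hmga1b had 8.65 and 1.09 normalized reads in PIA and 414 and 258 with IL-27 (6.20 ± 1.05, adjusted p = 0.000168). Its sequence nearly matches Hmga1, which encodes a protein that binds AT-rich DNA. The sum of both copies was 1459 and 1697 in PIA and 1087 and 1006 with IL-27, so the sum ran the other way. The predicted gene Gm45855 had 26.9 and 27.3 in PIA and 2255 and 27.2 with IL-27 (5.45 ± 0.88, adjusted p = 0.000168), with 16.7 and 1048 in Control, and was thus high in PIA+IL-27 1 and Control 2. The naming rule does not cover Gm45855 and Gdf1, which were picked after their values were seen.

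The test had little power at the spread of all 6 libraries, Control included. In that fit the coefficient of variation was 0.608 and the spread of a single gene carried no weight. With the 4 compared libraries alone the coefficient was 0.489. On simulated counts with a coefficient of 0.608, the test recovered 0% of 47 tested genes changed 2-fold and 2.13% of those changed 4-fold. It recovered 25% at 8-fold and 64% at 16-fold. With the 4 libraries of the comparison alone, 449 of 3006 tested genes passed (14.9%), 414 higher (13.8%) and 35 lower (1.16%). All 449 had groups that do not overlap, and their adjusted p-values lay between 0.0493, the smallest in that fit, and the threshold of 0.05. The median log2 fold change was 1.17 in both fits, and 5 genes passed in both (Hmga1b, Ccl5, Cxcl10, Serpina3f and Serpina3g). Hp and Wfdc17 were not tested with 4 libraries. The other called genes did not pass there, among them Saa3 (adjusted p = 0.0734, edgeR) and Ttr (adjusted p = 0.147, edgeR). Apart from the 14, no gene named here passed in the fit of 6 libraries. The adjusted p of the 4-library fit is given beside many of the named genes that passed in it. For others it lay above the threshold, as for P2ry12 (0.0543, edgeR) and Socs3 (0.0511, edgeR). None of the 14 calls held in every fit that left out 1 library: 0 genes passed without PIA 1, and Cxcl10, Serpina3f, Serpina3g, Gdf1 and S100a8 passed in none of these fits.

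Antigen presentation by MHC class I was lower in PIA+IL-27 across most listed genes. H2-D1, a classical class I heavy chain, had 4088 and 4327 normalized reads in PIA and 1194 and 1535 with IL-27 (-1.62 ± 0.79, adjusted p = 0.262, edgeR). Psmb8, a catalytic subunit of the immunoproteasome, had 444 and 426 against 95.9 and 89.3 (-2.23 ± 0.89, adjusted p = 0.257, and 0.0493 with 4 libraries). Tap1, 1 chain of the peptide transporter, had 448 and 1033 against 147 and 270. Both libraries with IL-27 lay below both PIA libraries in each of these genes. Nlrc5, the transactivator of class I genes, had 90.3 and 440 against 32.3 and 42.7 (-2.81 ± 0.95, adjusted p = 0.231). Of the 15 listed class I genes, 12 separated in this direction and 0 in the other, against 16.5% and 57.1% of all listed genes. For the 14 tested the median was -1.66. The median ran from -1.74 to -1.26 when 1 of the 4 libraries was left out.

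Class II genes, which present antigen to CD4+ T cells on microglia and macrophages, had larger differences and differed also between replicates. Ciita, their transactivator, had 40.4 and 163 normalized reads in PIA and 12.5 and 12.6 with IL-27 (-3.05 ± 1.04, adjusted p = 0.233). H2-Aa, the alpha chain of the class II molecule, had 131 and 267 against 50.1 and 34.0 (-2.24 ± 0.95, adjusted p = 0.257, and 0.0497 with 4 libraries). H2-Eb1, a beta chain, had 56.7 and 180 against 45.9 and 12.6. All 7 listed genes had both libraries with IL-27 below both PIA libraries, as did 16.5% of all listed genes. In all 7 PIA 2 lay above PIA 1, with a median log2 ratio of PIA 1 to PIA 2 of -1.32. This order is the reverse of that of the acute-phase and neutrophil genes, 10 of 11 and 17 of 19 of which were higher in PIA 1. The median of the 7 was -2.77, and it was -3.40 without PIA 1 and -1.64 without PIA 2.

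**Figure D2:**
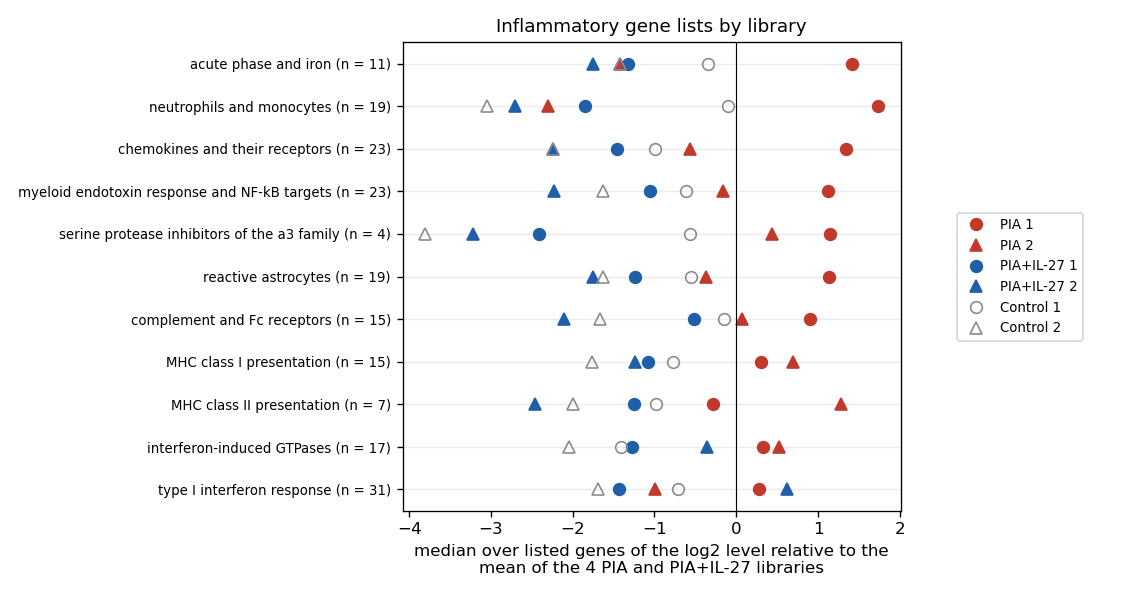
Median over the listed genes of 11 inflammatory lists (rows, n listed genes) of the log2 level relative to the mean of the 4 PIA and PIA+IL-27 libraries, per library, with Control in open grey. PIA 1 was highest for acute phase, neutrophil and chemokine genes, PIA 2 for MHC class II genes, and PIA+IL-27 2 for type I interferon genes.

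Interferon-induced GTPases attack the vacuoles of intracellular microbes and are classical targets of interferon gamma. Gbp2 had 590 and 420 normalized reads in PIA and 78.2 and 82.5 with IL-27 (-2.65 ± 0.89, adjusted p = 0.231, edgeR, and 0.0493 with 4 libraries). Igtp had 287 and 709 against 53.2 and 113 (-2.58 ± 0.89, adjusted p = 0.233, and 0.0493 with 4 libraries). Both genes lay several-fold lower in both libraries with IL-27. Irgm1 had 544 and 504 against 108 and 461, so that PIA+IL-27 2 lay just under PIA. Gbp7 had 25.9 and 49.1 against 60.5 and 103, with both libraries with IL-27 above PIA. Of the 17 listed GTPases 12 separated with PIA+IL-27 below and 2 above, against 16.5% and 57.1% of all listed genes. The median of the 15 tested was -1.17, or -1.86 without PIA+IL-27 2.

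Because GAS and ISRE are the elements through which interferons act, the 250 bases before the first listed start of each gene were read from RefSeq promoters (GRCm38.p6, mouse), which were found for 2905 of the 3733 genes. The build that the authors used is not given in the sources used here. The sequences were searched on both strands for GAS (TTC and GAA with 3 bases between), a pair of ISRE half-sites (GAAA and GAAA with 2 between), NF-kB (GGGA and TTTCC with 1 between), CRE (TGAC joined to GTCA), AP-1 (TGA and TCA with 1 between) and the TATA box (TATAAA). Capitals mark every match, which may overlap. The stretches lie at chr5:92348890-92349139 (minus strand) for Cxcl10, chr12:104235897-104236146 (plus) for Serpina3g, chr12:104214294-104214543 (plus) for Serpina3f, chr3:142620413-142620662 (plus) for Gbp2, chr11:58199306-58199555 (plus) for Igtp, chr11:48992247-48992496 (minus) for Tgtp1 and chr3:142530086-142530335 (plus) for Gbp7. They are shown to set the elements beside 3 called genes and beside 4 GTPase genes, of which Gbp7 ran the other way.
Cxcl10: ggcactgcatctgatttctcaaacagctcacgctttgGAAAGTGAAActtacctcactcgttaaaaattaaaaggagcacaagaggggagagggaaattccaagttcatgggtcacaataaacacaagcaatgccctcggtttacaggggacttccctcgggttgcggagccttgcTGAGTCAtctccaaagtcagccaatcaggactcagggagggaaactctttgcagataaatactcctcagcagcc
Serpina3g: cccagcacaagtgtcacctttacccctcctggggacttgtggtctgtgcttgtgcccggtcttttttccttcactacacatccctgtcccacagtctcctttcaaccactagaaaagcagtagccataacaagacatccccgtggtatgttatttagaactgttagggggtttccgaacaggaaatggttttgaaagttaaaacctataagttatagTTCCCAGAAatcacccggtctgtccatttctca
Serpina3f: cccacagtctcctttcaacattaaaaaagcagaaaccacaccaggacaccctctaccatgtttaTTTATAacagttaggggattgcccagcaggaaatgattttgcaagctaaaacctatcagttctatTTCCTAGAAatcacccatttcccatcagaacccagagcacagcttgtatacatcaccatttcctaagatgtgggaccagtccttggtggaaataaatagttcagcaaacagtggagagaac
Gbp2: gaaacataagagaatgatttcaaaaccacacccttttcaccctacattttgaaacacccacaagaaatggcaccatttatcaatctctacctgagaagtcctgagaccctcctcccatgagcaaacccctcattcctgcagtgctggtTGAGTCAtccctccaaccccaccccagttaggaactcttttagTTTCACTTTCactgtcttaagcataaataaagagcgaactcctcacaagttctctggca
Igtp: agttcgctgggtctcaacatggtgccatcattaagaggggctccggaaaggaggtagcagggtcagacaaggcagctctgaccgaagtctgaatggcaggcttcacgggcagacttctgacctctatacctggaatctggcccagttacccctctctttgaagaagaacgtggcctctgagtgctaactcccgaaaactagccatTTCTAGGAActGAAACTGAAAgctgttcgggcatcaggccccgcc
Tgtp1: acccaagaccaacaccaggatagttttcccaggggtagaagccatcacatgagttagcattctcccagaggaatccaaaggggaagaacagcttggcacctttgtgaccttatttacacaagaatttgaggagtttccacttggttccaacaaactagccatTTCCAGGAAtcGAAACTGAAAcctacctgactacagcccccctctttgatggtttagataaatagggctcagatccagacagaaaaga
Gbp7: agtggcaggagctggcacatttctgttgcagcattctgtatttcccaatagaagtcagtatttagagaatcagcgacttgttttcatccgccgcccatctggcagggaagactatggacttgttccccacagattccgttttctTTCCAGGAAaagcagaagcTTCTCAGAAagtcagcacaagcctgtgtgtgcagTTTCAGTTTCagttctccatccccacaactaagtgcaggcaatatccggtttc

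All 10 GTPase genes with a promoter held the pair of ISRE half-sites, against 3.04% of all 27025 RefSeq promoters of this length and 4.23% of the listed genes with a promoter, and 6 of the 10 held a GAS, against 7.18%. In Igtp, Irgm2, Tgtp1 and Tgtp2 the GAS stood at most 2 bases from the pair of half-sites, an arrangement found in 5 of all promoters (0.0185%). The letters ctagccat stood directly before the GAS in each of these genes, so their matches may not be independent. The list was also drawn up as genes that interferon induces, which acts through these elements. In Igtp the GAS lay 45 to 37 bases before the start and the half-sites 34 to 25. Of the 10 genes 8 had both libraries with IL-27 below PIA, 1 had them above and 1 overlapped. Over all listed genes 16.5% had them below and 57.1% above. Gbp7 held the half-sites and 2 copies of the GAS and lay above. Of the type I interferon list 12 of 24 promoters held the half-sites, and of the endotoxin list 0 of 21. Serpina3g and Serpina3f each held a GAS, 33 to 25 and 121 to 113 bases before the start. Cxcl10 held the pair of half-sites 213 to 204 bases before the start. Other called genes without overlap are not printed. Of these, Saa3 held the half-sites 125 to 116 bases before the start, and Wfdc17, also lower, held no match of any motif. Hmga1b, which was higher, held a GAS 212 to 204 bases before the start and an AP-1 match. For Ccl5 and Hp no promoter was found. Among the 464 genes with a promoter that separated as lower, 7.33% held the half-sites and 11.6% a GAS, and among the 1687 that separated as higher 2.73% and 7.35%. Other motifs differed too, with 9.91% and 3.68% for AP-1, 11.2% and 6.88% for the TATA box and 1.51% and 0.474% for NF-kB. CRE ran the other way, with 0.862% and 3.2%. These promoters also differed in makeup, with a median of 5 and 14 CG steps (CpG). A match is a description of letters, and no binding was measured.

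Genes of the type I interferon response did not move with the other lists. Of the 31 listed, 5 separated as higher and 4 as lower, against 57.1% and 16.5% of all listed genes. The median of 30 tested genes was 0.31. PIA 1 lay above PIA 2 in 28 of the 31, by a median log2 ratio of 1.15, and PIA+IL-27 2 above PIA+IL-27 1 in 28 of the 31, where the median log2 ratio of replicate 1 to 2 was -1.57. Each group thus held 1 library with higher and 1 with lower values. Irf7, the amplifying transcription factor of the response, had 790 and 251 normalized reads in PIA and 49.0 and 396 with IL-27. Isg15, a ubiquitin-like modifier, had 270 and 96.0 against 17.7 and 195. Ifit3, an antiviral RNA-binding protein, had 206 and 70.9 against 51.1 and 253. In all 3 PIA 1 and PIA+IL-27 2 were the highest of the 4. Ifit2 differed, with 64.4 and 51.3 in PIA and 201 and 224 with IL-27 (1.88 ± 0.94, adjusted p = 0.264, edgeR, and 0.0493 with 4 libraries). Without PIA 1 the list's median was 1.08 and without PIA+IL-27 2 it was -1.48, so its sign depended on which library was present.

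The pathway of IL-27 itself was measured through its listed members. Il27, the p28 subunit, had 2.88 and 7.64 normalized reads in PIA and 1.04 and 0 with IL-27, too few for a test. Ebi3, the other subunit, had 136 and 100 against 83.4 and 46.6 (-0.86 ± 0.95, adjusted p = 0.431). These counts are of transcripts in the tissue and do not measure the added protein. Socs3, the feedback inhibitor that STAT3 induces, had 368 and 143 against 54.2 and 63.1 (-2.12 ± 0.92, adjusted p = 0.257). Irf1, a transcription factor that interferons induce, had 308 and 847 against 149 and 113 (-2.14 ± 0.87, adjusted p = 0.257, and 0.0497 with 4 libraries). Both libraries with IL-27 lay under both PIA libraries in Socs3 and Irf1. Jak2, a kinase of this and many other cytokine receptors, had 330 and 241 against 943 and 674, in the opposite direction (1.50 ± 0.85, adjusted p = 0.281). Of the 15 listed genes of the IL-27 and JAK-STAT list, 5 separated as higher and 7 as lower. Over all listed genes the shares were 57.1% and 16.5%.

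Endotoxin-response genes of myeloid cells were lower in PIA+IL-27 with few exceptions. Of 23 listed, 20 separated as lower and 0 as higher, against 16.5% and 57.1% of all listed genes. The median of 21 tested was -2.24, or -1.27 without PIA 1. Tnf, the main early cytokine, had 50.0 and 21.8 normalized reads in PIA and 4.17 and 3.88 with IL-27 (-3.12 ± 1.23, adjusted p = 0.257, edgeR, and 0.0497 with 4 libraries). Il1b had 72.1 and 7.64 against 3.13 and 4.86. Il1rn, the antagonist of the IL-1 receptor, had 170 and 6.55 against 5.21 and 2.91 (-4.41 ± 1.15, adjusted p = 0.0615). PIA 2 came near the libraries with IL-27 in both IL-1 genes. Tnfaip2 had 267 and 69.8 against 15.6 and 9.71 (-3.72 ± 0.99, adjusted p = 0.0835, and 0.0493 with 4 libraries), and Acod1, which makes itaconate, had 166 and 60.0 against 19.8 and 2.91. These 2 genes separated by several-fold from the nearest library of the other group.

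Complement and Fc receptor genes, whose products tag or bind material for phagocytosis, had a median of -1.73 over 15 tested genes. Of the 15, 10 separated as lower and 0 as higher, against 16.5% and 57.1% of all listed genes. The median was -1.14 without PIA+IL-27 2 and -2.74 without PIA+IL-27 1. C2 had 208 and 227 normalized reads in PIA and 42.8 and 43.7 with IL-27 (-2.33 ± 0.95, adjusted p = 0.257, and 0.0493 with 4 libraries). Cfb, the protease of the alternative pathway, had 667 and 280 against 92.8 and 24.3 (-3.02 ± 0.90, adjusted p = 0.155, and 0.0493 with 4 libraries). C3 had 460 and 121 against 62.6 and 10.7. In C2 the replicates were close to each other in both groups, whereas Cfb and C3 were lowest in PIA+IL-27 2. Itgal, the LFA-1 integrin chain of leukocytes, had 277 and 180 against 56.3 and 25.2, and Hk3, a hexokinase of myeloid cells, had 123 and 301 against 42.8 and 27.2 (adjusted p = 0.0493 for both with 4 libraries, edgeR). Both were among the 8 lower genes with the widest gap between groups.

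Reactive astrocyte genes had a median of -1.88 over 19 tested genes. Of the 19, 10 separated as lower and 1 as higher, against 16.5% and 57.1% of all listed genes. Among the 19, 3 (Cxcl10, Lcn2, Steap4) also passed on their own. The median was -0.97 without PIA 1. Gfap, the intermediate filament of astrocytes, had 17950 and 6035 normalized reads in PIA and 4066 and 4747 with IL-27 (-1.44 ± 0.75, adjusted p = 0.266). PIA 1 was several-fold above the other 3 libraries, and PIA 2 lay little above those with IL-27. Slc1a2, the glutamate transporter of resting astrocytes, had 5015 and 2719 against 8016 and 9099, in the opposite direction. The 4 listed astrocyte markers, Gfap included, summed to 820 and 284 TPM in PIA and 317 and 363 TPM with IL-27, a sum carried by Gfap. The other 3 separated as higher.

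Homeostatic microglial genes were higher in PIA+IL-27 in part. P2ry12 had 9.61 and 56.7 normalized reads in PIA and 258 and 184.5 with IL-27 (2.74 ± 0.94, adjusted p = 0.233, edgeR). Gpr34, a lysophosphatidylserine receptor, had 10.6 and 28.4 against 95.9 and 68.0 (2.07 ± 1.02, adjusted p = 0.264), and the lectin Siglech had 9.61 and 29.5 against 59.4 and 50.5. The groups did not overlap in these 3 genes, and PIA 1 was the lowest library in each. Of the 8 listed genes 5 separated as higher, as did 57.1% of all listed genes, and 1 as lower, and the median was 1.40, or 2.42 without PIA 2, against the 1.17 of all tested genes. Mef2c, which neurons also express strongly, had 2763 and 5328 against 21320 and 2126, with overlapping groups. P2ry12 had 14.7 and 232 in the Control libraries, which thus spanned both groups.

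Genes of neurons and synapses were higher in PIA+IL-27, as were most listed genes. Gria2, the AMPA receptor subunit that blocks calcium entry, had 627 and 559 normalized reads in PIA and 2756 and 2610 with IL-27 (2.18 ± 0.80, adjusted p = 0.257, edgeR, and 0.0493 with 4 libraries). Gabrb2, a GABA-A receptor subunit, had 202 and 189.8 against 1373 and 1060 (2.63 ± 0.84, adjusted p = 0.203, and 0.0493 with 4 libraries). Grm5, a metabotropic glutamate receptor, had 738 and 487 against 2071 and 2662 (adjusted p = 0.0493, edgeR, with 4 libraries). In each of these genes the replicates were close and the groups lay several-fold apart. The glutamatergic list had 16 of 17 genes separated as higher with a median of 1.60, and the GABA list 13 of 15 with a median of 1.57 over 14 tested. The 27 voltage-gated channel genes had 18 with a median of 1.04. For comparison, 57.1% of all listed genes separated as higher. The median of all tested genes was 1.17, above that of the channel genes. Scn2a, a sodium channel of excitatory neurons, had 572 and 530 against 2633 and 1908 (2.04 ± 0.82, adjusted p = 0.257, and 0.0493 with 4 libraries). Lrp1b, a large endocytic receptor, had 40.4 and 42.6 against 271 and 207, and Gpr22, an orphan receptor, had 36.5 and 28.4 against 197 and 175 (adjusted p = 0.0493 for both with 4 libraries, edgeR). Both were among the 8 higher genes with the widest gap. Bdnf, the neurotrophin often studied in depression models, had 36.5 and 18.6 against 46.9 and 151 (1.84 ± 0.97, adjusted p = 0.266), so that only PIA+IL-27 2 lay clearly above PIA.

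**Figure D3:**
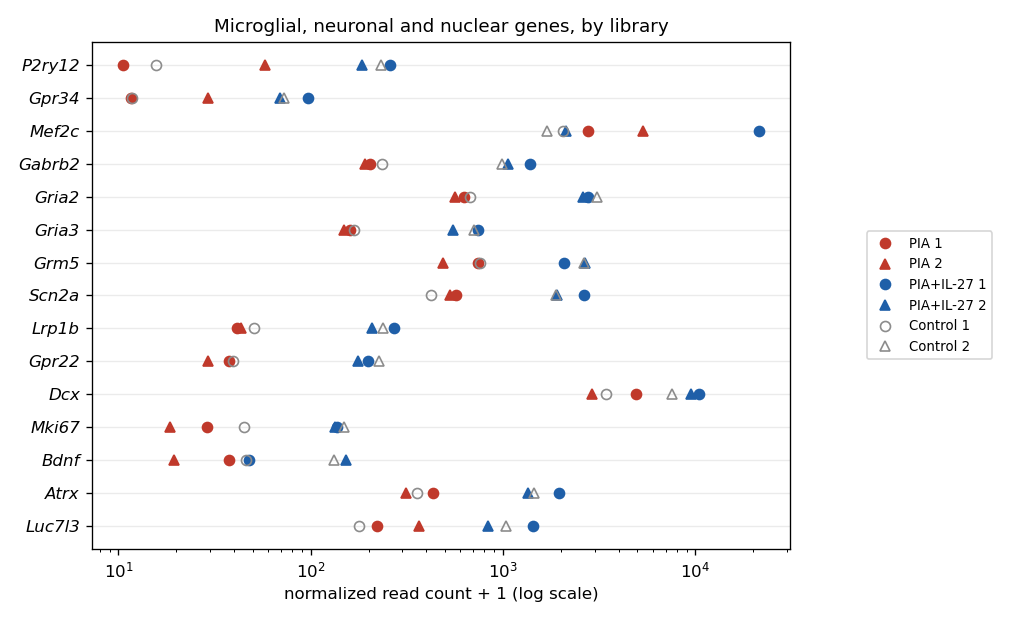
Normalized read counts plus 1 (log axis) of 15 microglial, neuronal and nuclear genes per library, with PIA in red, PIA+IL-27 in blue, Control in open grey, circles for replicate 1 and triangles for replicate 2. In Gria2, Gabrb2, Lrp1b and Atrx Control 1 lies with the PIA libraries and Control 2 with the PIA+IL-27 libraries.

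Genes of neurogenesis had values that also differed between replicates. Mki67, a protein of dividing cells, had 27.9 and 17.5 normalized reads in PIA and 136 and 132 with IL-27 (2.55 ± 0.97, adjusted p = 0.257, and 0.0493 with 4 libraries). Dcx, the microtubule protein of young neurons, had 4898 and 2897 against 10420 and 9443 (1.35 ± 0.76, adjusted p = 0.278). Both separated, and Mki67 by the wider margin. Neurod1, a transcription factor of differentiating granule neurons, had 397 and 97.1 against 268 and 992, with overlap. All 9 listed genes had a log2 fold change above 0 and 4 separated, against the 57.1% of all listed genes that separated as higher, and the median ran from 0.12 without PIA+IL-27 2 to 2.70 without PIA 1. The 44 listed genes of ependyma and motile cilia were likewise all above 0, with a median of 1.39, and 18 separated, again fewer than 57.1%. The 11 markers of ependyma summed to 48.0 and 39.1 TPM in PIA and 26.4 and 205 TPM with IL-27, and without PIA+IL-27 2 the median of the list was 0.22.

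Genes of chromatin, splicing and zinc fingers were mostly higher, as most listed genes were. Among other nuclear lists, 8 of 12 RNA helicases separated as higher and 1 as lower, and 1 of 4 histone genes as higher and 0 as lower. All 33 listed chromatin modifiers and all 29 listed splicing and RNA-binding factors separated as higher, with medians of 1.36 and 1.59, as did 195 of 203 zinc finger genes named Zfp or Zbtb, with a median of 1.75 over 191 tested. Atrx, a chromatin remodeller, had 430 and 312 normalized reads in PIA and 1954 and 1347 with IL-27 (2.15 ± 0.83, adjusted p = 0.257, edgeR, and 0.0493 with 4 libraries). Luc7l3, a factor of the U1 snRNP, had 220 and 367 against 1430 and 832 (adjusted p = 0.0493, edgeR, with 4 libraries). Zfp758 had 0 reads in both PIA libraries and 21.9 and 8.74 in PIA+IL-27, at least 10.2-fold higher if PIA is set at 3 counts in all. In Atrx, Luc7l3 and Zfp758 no value in PIA reached those in PIA+IL-27. Of the 203 zinc finger genes, 2 separated as lower. In all, 41 genes had no reads in PIA and exceeded 3 counts per group in PIA+IL-27, and 37 the reverse. The zinc finger, chromatin and splicing lists were described with the results of these data known, and 57.1% of all listed genes separated as higher.

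The direction of a gene's difference followed the base composition of its transcript. Across 3117 tested genes (not independent of each other) the log2 fold change had a Spearman rho of -0.64 with GC content and 0.385 with transcript length. Among the 779 genes with the lowest GC (33.2 to 41.2%) the median log2 fold change was 1.63 and 97.8% were above 0. Among the 780 with the highest (50.3 to 72.8%) it was -1.06 and 25.4% were above 0. Genes that separated as higher had a median GC of 42.4% and a length of 4650 bases, and those that separated as lower 54.0% and 2212 bases. The same trend was seen between the Control libraries, where the log2 ratio of Control 2 to Control 1 had a rho of -0.54 with GC, while rho was -0.17 for PIA 1 to PIA 2 and 0.0074 for PIA+IL-27 1 to 2.

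**Figure D4:**
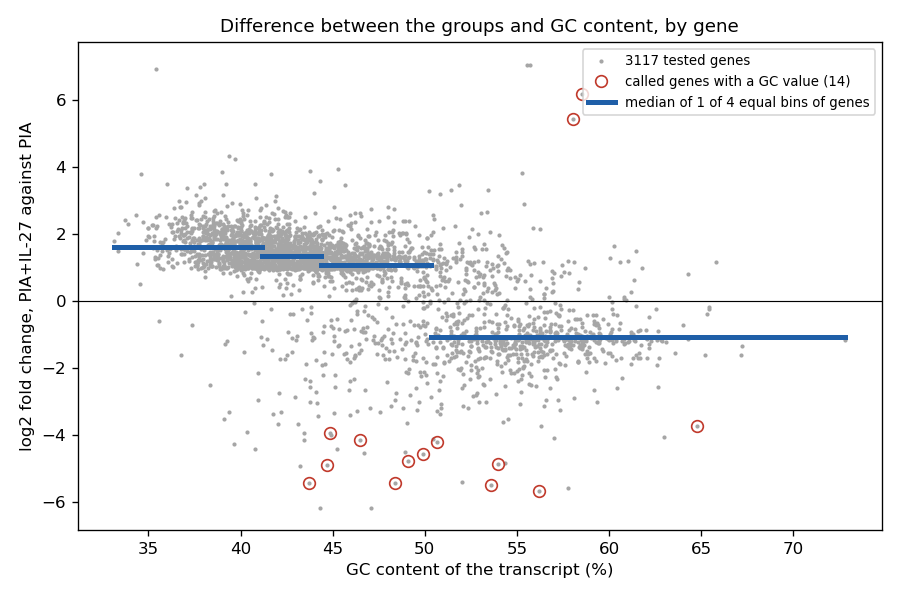
Log2 fold change of PIA+IL-27 against PIA (y) by GC content of the transcript in percent (x) for 3117 tested genes, with the 14 called genes circled and the medians of 4 equal bins of genes as blue bars. The medians step from 1.63 to -1.06, and the 12 called lower genes lie below the bulk of genes of their GC content.

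With the trends on GC and length removed per library, the median of all tested genes was 0.10 and 0 genes passed in edgeR, with 241 at an unadjusted p under 0.05. The removal also took out each library's overall level over the listed genes. Shifts in this setting are therefore not of GC and length alone, and the 2 parts were not separated. The medians of the glutamatergic, GABA, channel, chromatin and splicing lists came to 0.30, 0.13, 0.07, 0.06 and 0.20. That of homeostatic microglia was 0.46, of zinc finger genes 0.49, of neurogenesis 0.60 and of ependyma and cilia 1.26. The inflammatory medians stayed below 0, with -3.37 for acute phase, -3.35 for the Serpina3 genes, -2.93 for neutrophils and monocytes, -2.23 for chemokines, -2.18 for complement and Fc receptors, -2.17 for GTPases, -2.08 for MHC class II, -1.64 for the endotoxin response, -1.34 for reactive astrocytes and -0.78 for MHC class I. Scaling by TMM over the listed genes moved the median of all tested genes from 1.17 to -0.03, so that the medians of the glutamatergic, GABA, chromatin and splicing lists came to 0.43, 0.29, 0.11 and 0.34, that of zinc finger genes to 0.54 and that of homeostatic microglia to 0.07. The channel median turned to -0.09 and the type I interferon median to -0.78.

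**Figure D5:**
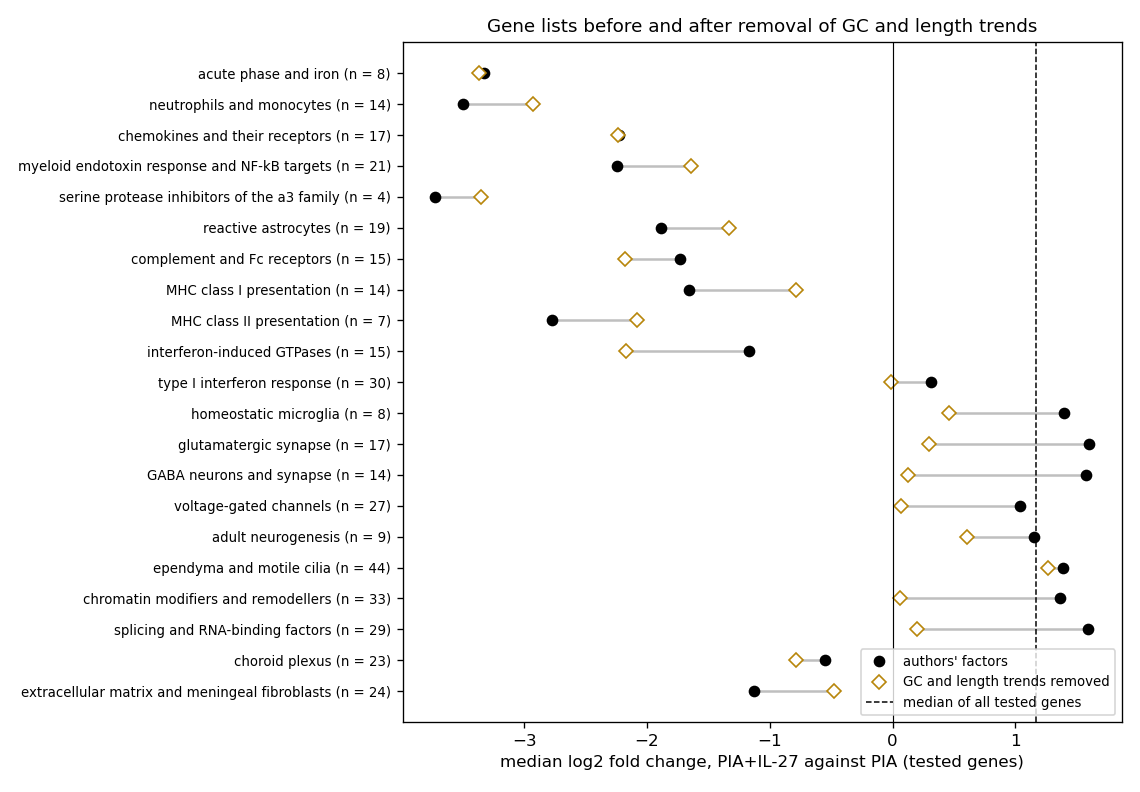
Median log2 fold change of PIA+IL-27 against PIA over the tested genes of 21 lists, with the authors' factors (black circles) and after removal of GC and length trends (open diamonds), and the median of all tested genes as a dashed line. Chromatin, splicing and synaptic lists move close to 0, and the inflammatory lists other than type I interferon stay below it. The removal also took out each library's overall level over the listed genes.

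The Control libraries did not lie on 1 side of the comparison. Of the 2130 genes that separated as higher, Control 1 lay within the PIA range or beyond it on that side in 1744, and Control 2 within the PIA+IL-27 range or beyond it in 1436. Gria2, for example, had 670 normalized reads in Control 1 and 3073 in Control 2. Of the 615 that separated as lower, Control 2 lay within the PIA+IL-27 range or beyond it in 423, and Control 1 did so in 180 and lay on the PIA side in 174. Over the 6 libraries the highest value of a gene was in PIA+IL-27 1 in 1521 genes, in Control 2 in 795, in PIA 1 in 464, in PIA 2 in 440, in PIA+IL-27 2 in 427 and in Control 1 in 86.

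Connective tissue genes were lower in part. Of 24 listed genes of extracellular matrix and meningeal fibroblasts 16 separated as lower and 2 as higher, against 16.5% and 57.1% of all listed genes. Their median was -1.13, or -0.74 without PIA+IL-27 2 and -0.47 with GC and length trends removed. The 8 listed markers of meningeal fibroblasts summed to 356 and 234 TPM in PIA and 181 and 85.1 TPM with IL-27, with both libraries with IL-27 under both PIA libraries. Ptgds, the prostaglandin D synthase made in meninges and choroid plexus, had 11430 and 13580 normalized reads in PIA and 8312 and 499 with IL-27, and was low in PIA+IL-27 2 alone. Markers of T, NK and B cells summed to 1.99 and 1.47 TPM in PIA and 0.40 and 0.04 TPM with IL-27, low in all 4 libraries. The part of meningeal or choroid plexus tissue in other results was not tested.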

How the data were processed

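Total RNA of mouse hippocampus was sequenced in 6 libraries (3 groups of 2), per the labels, and table columns were joined to samples by library name. The table holds expected counts per gene and library deposited by the authors, of which 11.3 to 13.3% are not whole. The authors' normalized reads are a signal: dividing each count, after rounding it up, by a factor for its library (0.917 to 1.05) gave 100% of the deposited values. TPM and FPKM were deposited by the authors, per the file headers, over the whole library. The deposited log2 fold changes and Q values (adjusted p-values) were used only to count the genes that the authors listed. Neither aligner nor counter, strand setting or the authors' test is named in those sources.

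After rounding, the counts went into edgeR 4.0.16 (R 4.3.3, quasi-likelihood, filterByExpr by group, Benjamini-Hochberg, threshold 0.05) with the authors' factors and all 6 libraries in 1 fit, which tested 3216 genes. Log2 fold changes are of these counts. The table is a selection on the same libraries, with 2974 of its genes selected for this comparison. Adjusted p-values were thus computed on genes already chosen in large part by the difference tested. They do not control false calls over the genome or among the listed genes. An exact permutation of 2 against 2 libraries cannot go below p = 0.333. Floors cover counting error only. Setting the 6 tested genes with no reads in 1 group at their floor moved no list's median by over 0.05. GC content and length came from GENCODE transcripts for 3597 genes (96.4%), and gene identifiers matched RefSeq for 3702. Simulated data were used to check the test.

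The lists and groups described were chosen with earlier results of these data known. Named genes are the 10 higher and 10 lower with the smallest p, the 8 of each with the widest gap between groups (mean of at least 100 normalized reads), up to 3 per list by p, the 10 with the highest FPKM and a set of IL-27, microglial and neurotrophin genes, and predicted genes were passed over; some of these genes are not reported here. Other members of a list were named to describe it, after their values were seen. The alternatives tried were factors from TMM or median ratios, no filter, 4 libraries, a replicate block, trends on GC and length removed (loess), each library left out, DESeq2 1.42.0 and limma 3.58.1 on log2 TPM plus 1 or 0.1.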

Additional observations from a re-analysis of the deposited data

How the results depend on the processing

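The count of 14 called genes (2 higher, 12 lower) depended on the setting. It was 16 with no filter on low counts (2 higher, 14 lower), and limma called 10 (1 higher, 9 lower) on log2 TPM plus 1 and 14 on log2 TPM plus 0.1, of which 9 each were among the 14. With only the 4 libraries it was 449 (414 higher, 35 lower). It was 0, with 0 in either direction, with TMM factors (591 at an unadjusted p under 0.05), with median-of-ratios factors (583), and with GC and length trends removed (241). DESeq2 called 4, 0 higher and 4 lower. Leaving out 1 library gave 0 to 7 calls, 0 to 2 higher and 0 to 7 lower: 0 without PIA 1 (92 at an unadjusted p under 0.05), 7 without PIA 2 (Saa3, Hp, Ccl5, Wfdc17, Ttr, Lcn2, Steap4), 5 without PIA+IL-27 1 (Hmga1b, Saa3, Ccl5, Steap4 and the Y-linked Kdm5d), 3 without PIA+IL-27 2 (Hmga1b, Ttr, Gm45855), and 0 without Control 1 (1602) or Control 2 (1589). Over the libraries left out, the log2 fold change of Ttr ran from -9.81 to 1.22 and that of S100a8 from -4.87 to 0.047, both turning above 0 without PIA 1. Where a group was left with 1 library, that library was assumed to vary like the others. A robust estimate of the spread, chosen after the data were seen, gave 8 calls (1 higher, 7 lower). The cause of these changes was not tested.

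The groups share replicate numbers. Across genes the deviations of PIA 1 and PIA+IL-27 1 correlated at -0.26. Those of PIA 1 and Control 1 did so at 0.147 and those of PIA+IL-27 1 and Control 1 at 0.0602. The labels do not say whether libraries of the same number belong together. With 2 libraries a group these correlations cannot decide it. With the replicate number as a block 4 genes passed (1 higher, 3 lower), and with GC and length trends removed as well 0 did (252 at an unadjusted p under 0.05). With the pairing crossed, chosen after the data were seen, 2 passed (1 higher, 1 lower).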

Other observations

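The listed genes held 0 of 82 ribosomal protein genes and 1 of 91 genes of oxidative phosphorylation, so these groups are not analysed here. Of 65 listed ubiquitin ligases and deubiquitinases 52 separated as higher in PIA+IL-27 and 3 as lower, with a median log2 fold change of 1.26 over 59 tested genes, or 0.14 with GC and length trends removed. Of 69 solute carriers 33 separated as higher and 19 as lower, with a median of 0.85 over 54 tested genes, which turned to -0.40 with TMM factors. Among all listed genes 57.1% separated as higher and 16.5% as lower, and the median of all tested genes was 1.17. The solute carriers thus lay under the table as a whole. Collagens ran the other way, with 12 of 22 separated as lower, 5 as higher and a median of -1.09. That median came to -0.23 with GC and length trends removed, and to 0.01 with the replicate block as well. Among the most abundant listed transcripts the chaperone Hsp90aa1 had 2579 and 2052 normalized reads in PIA and 11390 and 7912 with IL-27 (adjusted p = 0.0497, edgeR, with 4 libraries). Lpl, the lipoprotein lipase, had 865 and 251 against 1344 and 3289.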
